A study of Mus musculus with 30 samples.

Results

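Peripheral blood mononuclear cell (PBMC) RNA of mice with a large melanoma was compared with PBMC RNA of control mice. The comparison used 10 of the 30 libraries of the study, chosen by their titles: 5 PBMC libraries of O group and 5 of C group. Mice were C57BL/6 females, aged 6 to 8 weeks at the start. Mice of O group were injected under the skin with 100000 B16F10 cells, a pigmented melanoma line of the same mouse strain, in 100 µl of Hanks' balanced saline solution (HBSS), and mice of C group with HBSS alone. Blood was drawn 14 days later. Each library was made from RNA pooled over mice, 3, 4, 5, 3 and 5 mice in replicates 1 to 5 of O group and 5 mice in each replicate of C group, so the spread between replicates is a spread between pools. PBMCs were isolated with a kit from the blood that was left after the platelet-rich plasma had been taken off. The 5 PBMC libraries of S group (2000 cells injected, no visible tumor at autopsy) and the platelet libraries of O group and C group served for tests of a difference, and for globin counts all 30 libraries are described.

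PBMCs are the nucleated blood cells that stay above a density medium: T cells, B cells, NK cells, monocytes and a few dendritic cells. Red cells and most neutrophils sink through it, and young red cells that have just lost their nucleus (reticulocytes) still carry globin messenger RNA. Late in their development, erythroid cells make hemoglobin from alpha and beta globin chains and heme, build a spectrin-based membrane skeleton, and clear their organelles through ubiquitin ligases and autophagy.

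Between 14089426 and 15440504 counts fell on genes in a C group library and between 13390983 and 14279219 in an O group library, and gene levels are given as CPM (counts scaled to 1000000 per library) after TMM scaling. Genes that define B cells, T cells, NK cells and monocytes were well above 0 in all 10 libraries (Cd79a at 342 CPM or more, Cd3e at 63.0 or more, Csf1r at 478 or more, Ncr1 at 11.3 or more), as the label PBMC calls for. Erythroid, platelet and neutrophil genes were present too. Replicates 1 and 4 of O group, the 2 pools of 3 mice, stood apart from the rest. In replicate 1, 966 genes lay above 2 times the highest C group library, and in replicate 4 there were 498, against 98, 8 and 2 in replicates 2, 3 and 5. For a C group library set beside the other 4 of its group the number was between 2 and 71. TMM factors were 0.579 and 0.804 in these replicates and between 0.931 and 1.21 in the other 8 libraries. Apart from the number of mice, the labels describe these pools in the same words as the other O group pools. Beside lists and genes whose size or call rests on them, values without them are given, a choice made after the values were seen.

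Of 14726 genes tested with edgeR's quasi-likelihood test, 1113 were higher (7.56% of those tested) and 646 lower (4.39%) in O group at the unadjusted P under 0.05 used in the study. No gene had a Benjamini-Hochberg adjusted P under 0.05 in this test (smallest 0.337), and DESeq2 called 248 genes at that level. Below, a gene is said to rise or fall where it passed the unadjusted threshold, the P printed beside it is the Benjamini-Hochberg adjusted value of the same edgeR fit, and P values measure the spread between these pools. With 10 libraries the higher genes had a median log2 fold change of 0.67, and 200 of them exceeded 2 on the log2 scale, whereas the lower genes had a median of -0.31 and none fell by more than 2. The medians of the same genes were 0.27 and -0.28 when replicates 1 and 4 of O group were left out. Of the higher genes, 706 (63.4%) had their highest 2 of 10 levels in replicates 1 and 4 of O group, against 14.3% of all genes tested. Without these replicates, 492 of the 1113 higher genes and 318 of the 646 lower genes still passed the test in the same direction, while 795 (5.19%) genes were higher and 596 (3.89%) lower in all. Single libraries weighed on the counts too, since 1080 genes were lower without replicate 5 of O group and 732 higher without replicate 2 of C group.

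The highest 3 list medians were those of erythroid lists. Of 97 tested members of 5 erythroid lists, 70 rose and 1 fell, with a median log2 fold change of 2.28 against 0.00 for all genes tested. When replicate 1 was left out 62 rose and the median was 0.952, and 49 rose when replicate 4 was left out as well. Hemoglobin genes took 24.5%, 18.2%, 15.1%, 19.2% and 6.52% of the counts in replicates 1 to 5 of O group and 3.29%, 5.07%, 9.39%, 3.65% and 4.64% in C group. Replicate 5 of O group lay below replicate 3 of C group, while the other 4 O group libraries exceeded each C group value. The means differed by 11.5 percentage points (P = 0.0159, two-sided exact permutation test), and without replicates 1 and 4 of O group by 8.05 points (exact permutation P = 0.0357). In bulk RNA, fewer cells of a type and less RNA per cell cannot be told apart, and the same holds for more cells and more RNA per cell.

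The adult alpha globin genes Hba-a1 and Hba-a2 are near-identical copies on chromosome 11, the adult beta globin genes Hbb-bs and Hbb-bt lie side by side on chromosome 7, and Alas2, on the X chromosome, codes for the first enzyme of heme synthesis in erythroid cells. The 150 bases before the RefSeq start of each are shown because these genes rose together (RefSeq, GRCm38.p6, 5′ to 3′ on the strand of the gene). They lie before the RefSeq transcript, so their likeness does not show how reads were split between copies. Capitals mark the motif GATAA, the motif CACCC and the motif CCAAT, each searched on both strands, where neighbouring matches can touch or overlap.
Hba-a1: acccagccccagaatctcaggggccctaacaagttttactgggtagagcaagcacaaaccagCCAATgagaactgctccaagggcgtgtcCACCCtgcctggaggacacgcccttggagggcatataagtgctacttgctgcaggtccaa
Hba-a2: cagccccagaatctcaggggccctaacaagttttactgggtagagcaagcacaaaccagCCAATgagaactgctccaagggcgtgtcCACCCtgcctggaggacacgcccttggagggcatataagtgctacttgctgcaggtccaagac
Hbb-bs: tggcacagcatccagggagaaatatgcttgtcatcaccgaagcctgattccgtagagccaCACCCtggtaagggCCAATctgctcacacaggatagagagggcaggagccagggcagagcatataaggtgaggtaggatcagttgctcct
Hbb-bt: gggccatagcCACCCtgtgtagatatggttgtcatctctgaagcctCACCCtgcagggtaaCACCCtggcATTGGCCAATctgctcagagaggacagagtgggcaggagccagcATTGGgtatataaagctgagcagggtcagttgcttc
Alas2: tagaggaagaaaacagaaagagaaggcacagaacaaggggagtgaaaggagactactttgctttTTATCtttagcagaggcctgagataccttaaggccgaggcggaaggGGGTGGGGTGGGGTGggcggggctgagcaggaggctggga

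In order, these windows are chr11:32283522-32283671 (plus strand), chr11:32296342-32296491 (plus strand), chr7:103827929-103828078 (minus strand), chr7:103813924-103814073 (minus strand) and chrX:150547267-150547416 (plus strand). The RefSeq starts differ from the GENCODE M21 bounds used for gene positions in this report. The windows of Hba-a1 and Hbb-bs thus lie inside the gene spans printed below, and the other windows overlap the spans of their genes. Shifted by 3 bases, the windows of Hba-a1 and Hba-a2 were identical at all 147 bases compared. Those of Hbb-bs and Hbb-bt matched at 106 of 149 bases. Each globin window held CCAAT and CACCC, and the Alas2 window held GATAA 1 time and CACCC 3 times. Among the 32851 promoters of the table, 13.3% held GATAA, 37.4% CACCC and 24.5% CCAAT in the same 150 bases. Among 111 promoters of genes in the erythroid lists 20, 67 (60.4%) and 35 (31.5%) held them, and among 30 of T cell genes 2 (6.67%), 20 (66.7%) and 1 (3.33%), so a high share of CACCC was not particular to the erythroid lists. These matches describe the letters in the window and were not tested as binding sites.

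Hba-a1 (ENSMUSG00000069919, chromosome 11, 32283511 to 32284465) was at 321311, 74313, 55513, 154654 and 20236 CPM in replicates 1 to 5 of O group and at 9985, 18497, 34167, 12365 and 13922 CPM in C group. Replicate 1 was the highest, replicate 5 lay within the C group range, and the other O group libraries lay above it. The log2 fold change was 2.82 ± 0.69 (standard error, adjusted P = 0.337), and 1.49 (adjusted P = 0.495) without replicates 1 and 4. Its copy Hba-a2 (ENSMUSG00000069917) had 21112, 15892, 18477, 42469 and 4813 CPM in O group and 3206, 1570, 6319, 1140 and 3788 CPM in C group, a log2 fold change of 2.68 ± 0.60 (adjusted P = 0.337), and 2.02 without replicates 1 and 4. The split of reads between the 2 copies depends on the counting and is uncertain, so their sum is used where chains are compared.

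The beta globin genes rose too, but in another order of libraries. Hbb-bs (ENSMUSG00000052305, chromosome 7, 103826534 to 103828096) was at 39709, 71619, 62232, 19944 and 25652 CPM in O group and at 10226, 19459, 35741, 13381 and 16979 CPM in C group. Here replicates 2 and 3 were the highest, and replicate 4, which was second for Hba-a1, was the lowest of O group. The log2 fold change was 1.19 ± 0.43 (adjusted P = 0.352), and 1.47 (adjusted P = 0.495) without replicates 1 and 4. Hbb-bt (ENSMUSG00000073940) had 41640, 33832, 16891, 22020 and 6537 CPM in O group and 3863, 4536, 9244, 5041 and 5117 CPM in C group, a log2 fold change of 2.12 ± 0.45 (adjusted P = 0.337), and 1.77 without replicates 1 and 4. Hbb-bs did not pass the test without replicate 2 of O group (0.946). Reads could be split between Hbb-bs and Hbb-bt as well, so the level of each and its order of libraries are uncertain.

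**Figure D1:**
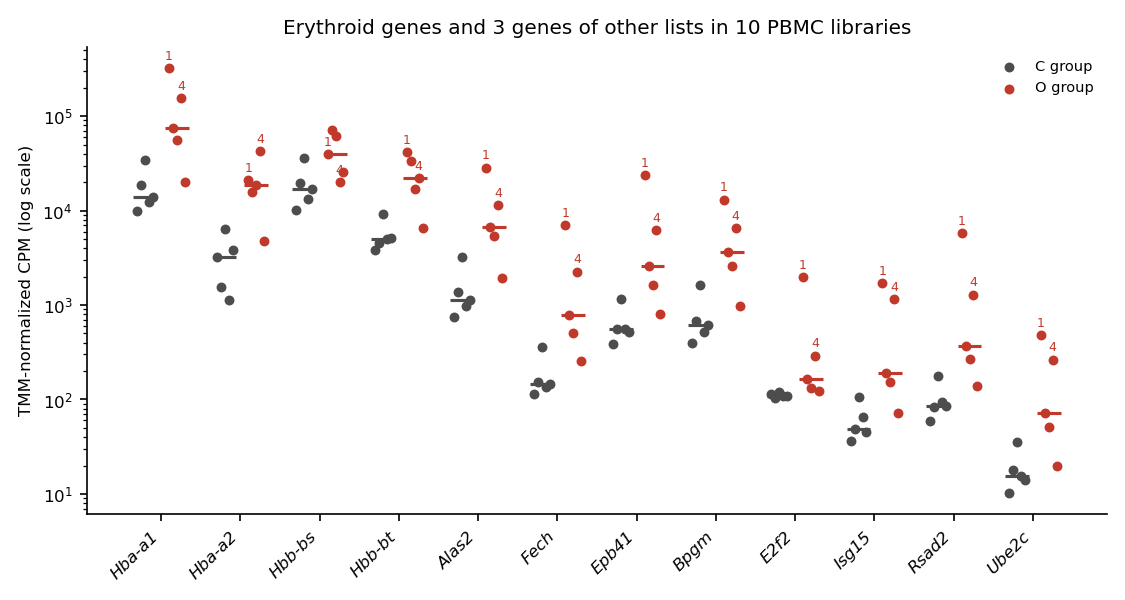
Levels (TMM-normalized CPM, log scale) of 9 erythroid genes, Isg15, Rsad2 and Ube2c in each PBMC library; horizontal lines are group medians and the numbers 1 and 4 mark these replicates of O group. For Alas2, Fech, Epb41, Bpgm and E2f2, and for the 3 genes on the right, replicate 1 was the highest and replicate 4 the second highest of the 10 libraries.

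The balance of alpha and beta globin counts separated replicates 1 and 4 of O group from all other PBMC libraries. Counts on Hba-a1 and Hba-a2 together were 4.21 times those on Hbb-bs and Hbb-bt in replicate 1 and 4.70 times in replicate 4. In the 13 other PBMC libraries of the study, S group included, this ratio was between 0.725 and 1.01. In the 15 platelet libraries it was between 2.43 and 3.90. Within the beta globin counts, the ratio of Hbb-bs to Hbb-bt was 0.954 and 0.906 in replicates 1 and 4 and between 2.12 and 5.64 in the 13 other PBMC libraries. Here the 15 platelet libraries, between 2.27 and 4.47, lay in the range of the other PBMC libraries and above replicates 1 and 4. The split of reads between Hbb-bs and Hbb-bt depends on the counting, as for the alpha pair. Counts on Hbb-bh1, an embryonic beta-like globin gene, were 29 in replicate 1, 24 in replicate 4 and at most 1 in the 13 other PBMC libraries. The platelet libraries of O group with the same numbers had 24 and 18 counts on Hbb-bh1, and no other platelet library had more than 2. Hbb-y, another embryonic beta-like globin gene, did not show this in platelets. It had 71 and 79 counts in these platelet libraries, and 101 and 129 in platelet replicates 1 and 2 of C group. In PBMCs it had 115 and 25 counts in replicates 1 and 4 of O group and at most 17 in the 13 other libraries. Hbb-bh1 was chosen after its values were seen, and these differences between libraries of 1 group were not tested.

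**Figure D2:**
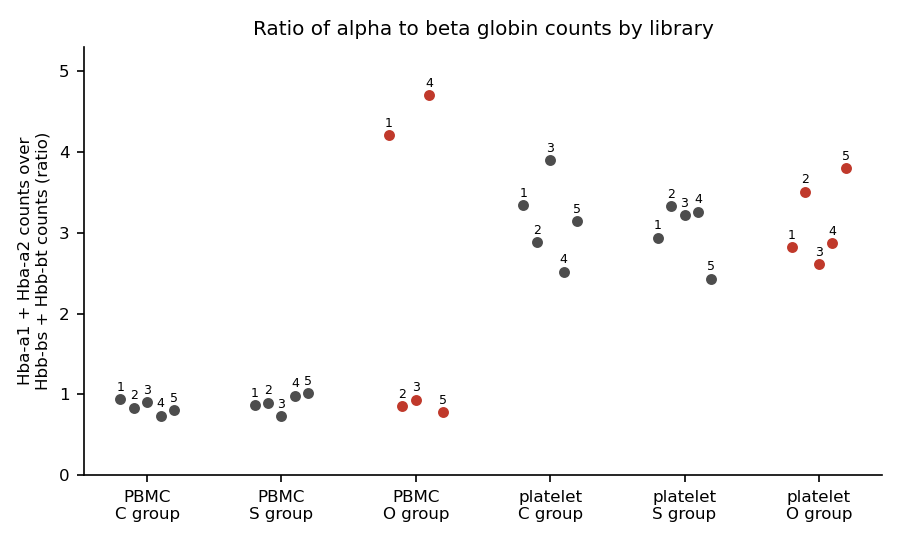
Ratio of alpha globin counts (Hba-a1 plus Hba-a2) to beta globin counts (Hbb-bs plus Hbb-bt) in each of the 30 libraries, by tissue and group; each point is 1 library and its number is the replicate. PBMC replicates 1 and 4 of O group sit at 4.21 and 4.70, and the other PBMC libraries at 1.01 or below.

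All 6 hemoglobin genes that passed the filter on low counts rose (median log2 fold change 2.58), among them the theta globin genes Hbq1a and Hbq1b. Of 18 genes of heme synthesis and erythroid iron uptake, 11 rose and none fell (median 1.46). Alas2 (ENSMUSG00000025270) was at 28436, 6703, 5363, 11354 and 1913 CPM in O group and at 754, 1385, 3223, 967 and 1119 CPM in C group. Replicate 5 of O group was again inside the C group range, and the log2 fold change was 2.85 ± 0.69 (adjusted P = 0.337). Fech, which inserts iron into the porphyrin ring, rose by 3.57 ± 0.86 and Urod, an earlier enzyme of the pathway, by 3.63 ± 1.00 on the log2 scale. Urod was at 1520 CPM in replicate 1, 377 in replicate 4 and 39.2 to 72.8 in the other O group libraries, against 29.2 to 42.6 CPM in C group. Its log2 fold change was 2.01 without replicate 1. Without replicates 1 and 4 it was 0.63 for Urod, 1.5 for Fech and 1.64 for Alas2 (adjusted P = 0.495 for each), and 6 of the heme genes rose with a median of 0.11. Without replicate 1 alone 6 rose as well, with a median of 0.241. The transferrin receptor gene Tfrc, named after its values were seen, had 10780 counts in replicate 1 of O group, 672 in replicate 4 and between 583 and 1039 in the 13 other PBMC libraries of the study, so replicate 4 did not stand apart for this gene.

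Of 23 genes of the red cell membrane and its skeleton, 17 rose and 1 fell (median 3.91, the highest of the lists). The fall, of the potassium channel gene Kcnn4 (-0.23 ± 0.10, adjusted P = 0.396), did not pass under RLE size factors, without replicates 1 and 4 of O group, or without any of 7 single libraries, that is, all but replicate 3 of C group and replicates 2 and 3 of O group. Epb41, the gene of a protein that ties spectrin to the membrane, was at 23697, 2569, 1627, 6210 and 800 CPM in O group and at 389, 564, 1166, 556 and 514 CPM in C group. Only replicate 5 overlapped with C group, and the log2 fold change was 3.45 ± 0.86 (adjusted P = 0.337). Add2, the gene of beta adducin, rose by 6.43 ± 1.62 on the log2 scale. Add2 stood at 329 CPM in replicate 1 and at 5.47 CPM or less in replicates 2, 3 and 5. Without replicate 1 the values were 2.14 for Epb41, 3.63 for Add2 and 2.13 for the median of the list. In the fit that left out replicates 1 and 4, Epb41 had 1.38 and Add2 2.09 (adjusted P = 0.495 for both), 13 of the membrane genes rose and the median was 1.07.

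Of 33 genes of reticulocyte maturation, ubiquitin ligation and mitophagy, 31 rose (median 2.34). Bpgm, which makes the 2,3-bisphosphoglycerate of red cells, rose by 2.80 ± 0.66 and the ubiquitin-conjugating enzyme gene Ube2l6 by 2.67 ± 0.61 on the log2 scale. When replicates 1 and 4 were left out, Bpgm had 1.64 and Ube2l6 1.63, and 23 genes of this list rose (median 0.91). With only replicate 1 left out 30 rose. By contrast, 5 of 17 erythroid regulators and cell cycle exit genes rose (Sox6, Hemgn, E2f2, Lmo2 and Foxo3, median 0.57), and of these E2f2 alone without these replicates (0.33, median of the list 0.03). Sox6 went from 5.50 to 2.74 without replicate 1, and E2f2 from 2.28 to 0.681. The count of the list was 3 without replicate 2 or 5 of C group and 8 without replicate 5 of O group. Sox6, Hemgn, E2f2 and Foxo3 did not pass in a fit that pairs same-numbered pools of both groups as a block. E2f2 was at 1988, 165, 133, 292 and 123 CPM in O group and at 113, 103, 121, 109 and 110 CPM in C group, so that it was higher in every O group library, and by far the highest in replicate 1. Klf1, a transcription factor of nucleated erythroid precursors, had 222 counts in replicate 1, 27 in replicate 4 and between 2 and 12 in the other 8 libraries, and did not pass the filter. With the log2 hemoglobin share as a covariate, none of the 97 erythroid genes passed the test. The share is made from the hemoglobin genes of these lists and itself differed between the groups. The fit therefore cannot test these lists apart from it, and 72 of all 14726 genes tested were higher and 77 lower there.

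**Figure D3:**
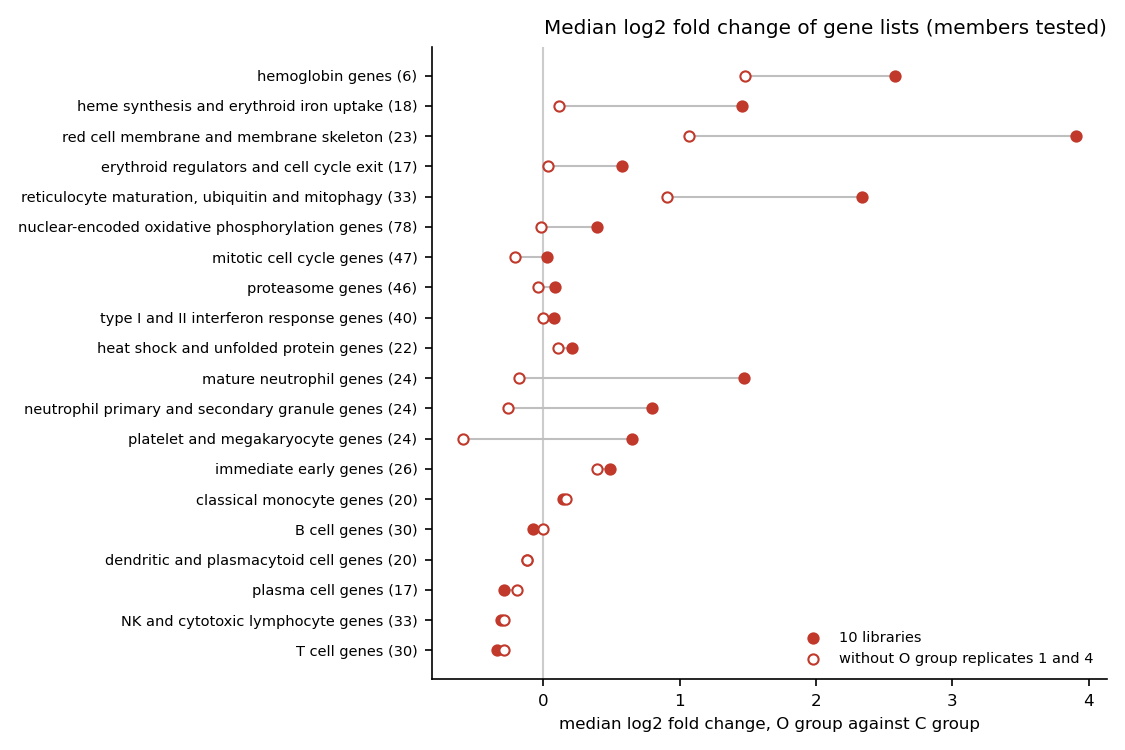
Median log2 fold change of O group against C group for 20 gene lists, with the number of members tested in brackets; filled points use 10 libraries and open points leave out replicates 1 and 4 of O group. The hemoglobin, red cell membrane and reticulocyte lists lie farthest to the right with 10 libraries, and the T cell and NK lists lie at -0.34 and -0.315 with 10 libraries and at -0.29 in both cases without these replicates.

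Several genes of lists with no erythroid name followed the same libraries. Isg15, an interferon-induced ubiquitin-like protein, was at 1706, 193, 152, 1159 and 72.8 CPM in O group and at 36.1, 48.5, 107, 65.9 and 45.5 CPM in C group (log2 fold change 3.44 ± 0.84, adjusted P = 0.337). Rsad2, the interferon-induced gene of viperin, was at 5788, 367, 271, 1291 and 138 CPM in O group and at 59.4, 82.6, 179, 94.8 and 85.5 CPM in C group (3.97 ± 0.99, adjusted P = 0.337). For both genes the order of the O group libraries was that of Hba-a1, and replicate 3 of C group, which had the most hemoglobin of its group, was the highest of C group. The interferon response list as a whole did not move with them: 3 of 40 members rose (Isg15, Rsad2 and Oas3), a share near the 7.56% of all genes. None fell, and the median was 0.07. Without replicate 5 of O group 6 members rose, and without replicate 4 of O group 2 rose and 3 fell. Oas3 did not pass without replicate 1 or 4 of O group or replicate 2 of C group. Without replicates 1 and 4 of O group Isg15 still passed, at 1.20 (adjusted P = 0.495), as did Rsad2 at 1.36 (adjusted P = 0.495), which had 2.37 without replicate 1 alone. The summed level of the 5 erythroid lists was 625694, 226793, 177339, 303131 and 69359 CPM in O group and between 35459 and 102192 CPM in C group, and its part in these values was not tested.

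Of 47 mitotic cell cycle genes 11 rose and 5 fell, where 7.56% of all genes rose and 4.39% fell. Ube2c, an enzyme of mitotic exit, was at 476, 72.7, 50.8, 264 and 19.9 CPM in O group and at 10.2 to 35.4 CPM in C group (log2 fold change 3.25 ± 0.80), and Nusap1, a spindle protein gene, rose by 3.52 ± 0.90. All 11 genes that rose had their highest 2 levels in replicates 1 and 4 of O group. Those that fell were Stmn1, Mcm6, Mcm5, Mcm3 and Ccnf, of which the Mcm genes code for parts of the replication helicase. The fit that lacked replicate 1 had 4 that rose, the fit that lacked replicate 4 had 7, and 2 fell in the fit that lacked replicate 2, all of O group. With replicates 1 and 4 left out, 2 mitotic genes rose and 9 fell, and the median moved from 0.02 to -0.21, while Ube2c had 1.36 and Nusap1 1.10 (2.31 without replicate 1 alone).

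Of 78 nuclear-encoded genes of oxidative phosphorylation, 22 rose and none fell (median 0.39), whereas none of 12 mitochondrially encoded genes passed the test (median -0.03). Cox6a1, a subunit of cytochrome c oxidase, was at 752, 144, 136, 459 and 101 CPM in O group and 110 to 125 CPM in C group. In 21 of the 22 genes replicates 1 and 4 of O group were the highest 2 libraries, and without them 1 gene of the list rose, 1 fell and the median was -0.02. The count was 5 without replicate 1 and 6 without replicate 4 of O group, 6 to 13 with any 1 C group library left out, and 38 and 37 without replicates 3 and 5 of O group. Cox6a1 had a log2 fold change of 1.46, 0.866 without replicate 1, and 0.13 (adjusted P = 0.686) without replicates 1 and 4. Of 46 proteasome genes, 4 rose, a share near the 7.56% of all genes (Psme3, Psmf1, Psmd4 and Psmd8), all with replicate 1 as the highest library, and Psme3 alone of these still passed without replicates 1 and 4 (0.71). Without replicate 2, 3 or 5 of O group 9, 7 and 9 proteasome genes rose. Of 22 heat shock and unfolded protein genes 7 rose and Hspe1 fell, with 2 that rose without replicates 1 and 4. Asns, which makes asparagine, was at 51.3 CPM in replicate 1, 7.05 in replicate 4 and 1.74 or less in the other 8 libraries, and its log2 fold change went from 3.84 to 1.67 without replicate 1 and to 0.65 (adjusted P = 0.59) without replicates 1 and 4.

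Of 24 mature neutrophil genes tested, 8 rose and none fell (median 1.47), where 7.56% of all genes rose. Their summed level was 8896 CPM in replicate 1 and 9951 in replicate 4 of O group, 2142, 1677 and 1216 in replicates 2, 3 and 5, and 921 to 3179 CPM in C group, where replicate 4 was the highest. S100a8 had 1587, 147, 78.8, 1343 and 75.0 CPM in O group and 158, 50.4, 86.9, 577 and 61.1 CPM in C group (log2 fold change 1.79 ± 1.03, adjusted P = 0.499). The groups overlapped widely, since 3 O group libraries lay within the C group range. Csf3r, the receptor of granulocyte colony-stimulating factor, passed the test with 10 libraries (1.41 ± 0.60, adjusted P = 0.398), and its log2 fold change was -0.17 without replicates 1 and 4. Without these no mature neutrophil gene passed, and the median was -0.18. The count moved with single libraries. It was 16 when replicate 4 of C group or replicate 5 of O group was left out, and 4 or 1 when replicate 1 or 4 of O group was. Leaving out replicate 1, 2, 3 or 5 of C group gave 5, 1, 2 or 1. With replicate 4 of C group left out besides replicates 1 and 4 of O group, 4 rose. Csf3r did not pass with any of replicates 2 to 5 of C group or replicate 1 or 4 of O group left out. Of 24 neutrophil granule genes, Anxa1 alone rose (median 0.795), but 14 rose without replicate 4 of C group, 6 without replicate 5 of O group, 3 without replicate 3 or 4 of O group and none without replicate 1 of O group or replicate 2, 3 or 5 of C group. None rose without replicates 1 and 4 of O group, and the median was then -0.257. In the fit of 7 libraries that lacked all 3 of these pools (1 and 4 of O, 4 of C) 8 granule genes rose, and against S group 10 rose and 1 fell. Elane, which marks neutrophil precursors, had 14 counts or fewer in every library.

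Pf4 was at 1755, 243, 271, 899 and 154 CPM in O group and at 218, 449, 100, 590 and 459 CPM in C group, and Itga2b, the integrin alpha IIb gene, was highest in replicate 1 of O group as well. Of 24 genes tested, Thbs1 alone rose, at a log2 fold change of 0.99 ± 0.44 (adjusted P = 0.408), where 7.56% of all genes rose. It passed only where replicate 4 of C group or replicate 2 or 5 of O group was the library left out, and 2 genes rose without replicate 5. The median of the list was 0.65 with 10 libraries, 0.0455 without replicate 1 and -0.59 without replicates 1 and 4 of O group.

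T cell genes were lower in O group. Of 30 members tested, 23 fell and none rose, where 4.39% of all genes tested fell, and the median log2 fold change was -0.34. In 23 members each O group library lay below the C group median. Cd3e, a chain of the T cell receptor complex (ENSMUSG00000032093, chromosome 9, 44998740 to 45009627), was at 63.0, 68.8, 90.0, 84.1 and 88.0 CPM in O group and at 112, 119, 90.4, 107 and 114 CPM in C group. The groups did not overlap, although the replicates numbered 3 nearly touched, and the log2 fold change was -0.46 ± 0.12 (adjusted P = 0.337). Groups that did not overlap were seen in 108 genes with higher O group levels (0.733%) and 141 with lower ones (0.957%) of all tested, and in 4 T cell genes, Cd3e, Cd3d and Il7r among them.

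Cd4, which marks helper T cells, was at 90.1, 98.9, 112, 116 and 121 CPM in O group and at 141, 155, 116, 124 and 158 CPM in C group (log2 fold change -0.37 ± 0.11, adjusted P = 0.339). Cd8a, which marks cytotoxic T cells, was at 103, 91.4, 111, 101 and 110 CPM in O group and at 162, 138, 105, 120 and 115 CPM in C group (-0.31 ± 0.12, adjusted P = 0.371). For both, replicates of O group overlapped with the lowest C group libraries. Cd8a did not pass without replicate 1 or 2 of C group or replicate 2 of O group. Of 20 regulatory T cell and T cell activation genes tested, Izumo1r, Tnfrsf18, Foxp3 and Tox fell, and Cd44 and Havcr2 rose. Of all genes 4.39% fell and 7.56% rose. Without replicate 4 of O group 7 genes of this list fell. Without replicates 1 and 4 of O group 20 of 30 T cell genes fell (median -0.29), 19 of them among the 23. When the erythroid lists were left out of the scaling, 23 fell, and with any 1 of the 10 libraries left out, between 15 (without replicate 2 of C group) and 24 fell. With the log2 hemoglobin share as a covariate none passed and the median was -0.10, but only 77 of all 14726 genes tested fell there.

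Of 33 NK and cytotoxic lymphocyte genes tested, Klrb1c, Klrd1, Ctsw, Nkg7 and Ncr1 fell and none rose, where 4.39% of all genes fell. The median of the list was -0.315. Klrb1c, which codes for the NK1.1 antigen, was at 13.1, 12.5, 15.9, 18.3 and 17.0 CPM in O group and at 18.9, 23.4, 22.3, 23.3 and 28.7 CPM in C group. The groups did not overlap, and the log2 fold change was -0.60 ± 0.14 (adjusted P = 0.337). Ncr1, the gene of the NK receptor NKp46, fell by 0.52 ± 0.19 on the log2 scale. Gzma, a granzyme of cytotoxic cells, was at 55.5 to 140 CPM in O group and at 96.2 to 163 CPM in C group (adjusted P = 0.472). All 5 genes that fell also fell without replicates 1 and 4 of O group, among 8 of the list that did. With the log2 hemoglobin share as a covariate no gene of the list passed (median -0.245), but only 77 of all 14726 fell there. Without replicate 1 of C group 11 fell and without replicate 3 of O group 10 fell. Ncr1 did not pass without replicate 5 of C group.

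**Figure D4:**
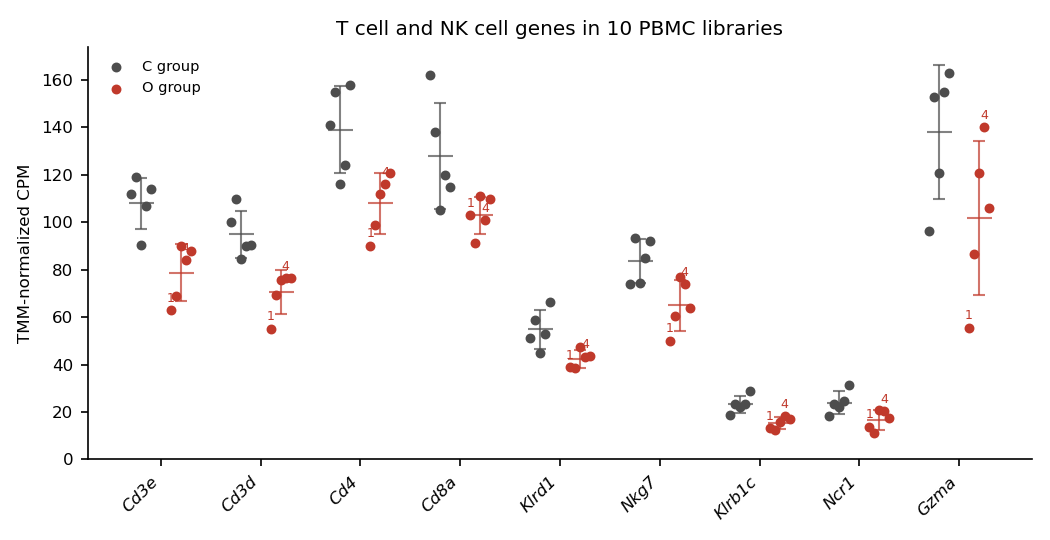
Levels (TMM-normalized CPM) of 4 T cell and 5 NK or cytotoxic genes in each PBMC library, with the mean and SD of 5 libraries per group; the numbers 1 and 4 mark these replicates of O group. For Cd3e, Cd3d and Klrb1c all O group libraries lie below all C group libraries, and for the other 6 genes the groups overlap.

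Of the B cell genes 1 fell with 10 libraries, a share near the 4.39% of all genes. The count rested on replicate 5 of O group, without which 9 fell. Cd79a, a chain of the B cell receptor complex, was at 342 to 579 CPM in O group and 383 to 535 CPM in C group (adjusted P = 0.902), and of 30 genes tested Iglc2, a light chain constant region gene, fell (median of the list -0.08, and -0.194 without replicate 5 of O group). Ms4a1, the gene of the surface antigen CD20, was at 185, 187, 180, 191 and 286 CPM in O group and at 182 to 270 CPM in C group. Without replicate 4 of C group 3 genes of the list fell, without replicate 3 of C group or without replicates 1 and 4 of O group none did, and against S group 5 fell. Of 17 plasma cell genes Fkbp11, Ighg1, Igha and Mzb1 fell and Xbp1 rose, with 1 that fell without replicate 1 or 5 of C group and 2 without replicate 2 of C group or replicate 3 or 4 of O group. When replicates 1 and 4 of O group were left out, Igha alone of these 5 genes passed. Igha was at 226, 189, 164, 80.3 and 127 CPM in O group and at 440, 214, 195, 146 and 336 CPM in C group (log2 fold change -0.76 ± 0.34, adjusted P = 0.408). Its groups overlapped in 3 O group libraries that reached the C group range, and it did not pass without replicate 1 or 5 of C group or replicate 3, 4 or 5 of O group. Of 20 dendritic cell genes 1 fell, a share near the 4.39% of all genes: Pacsin1, a gene of plasmacytoid dendritic cells, which fell by 0.45 ± 0.12 on the log2 scale without overlap. Of this list 4 genes fell without replicate 1 of C group and 3 without replicate 4 of C group or replicate 3 or 5 of O group. No gene of MHC class I (21 tested) or class II (13 tested) presentation and no basophil, mast cell or eosinophil gene (17 tested) passed.

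Of 20 classical monocyte genes Ccl9, Lgals3 and Fn1 rose (median 0.14), where 7.56% of all genes rose. None of the list rose without replicate 2 or 3 of C group or replicate 2 or 3 of O group. Of 15 non-classical monocyte genes 1 rose (median 0.01), a share near the 7.56% of all genes: Cd36, a fatty acid uptake receptor. Cd36 was at 403 CPM in replicate 1 of O group, at 39.1 to 69.3 CPM in the other 4, and at 25.2 to 46.6 CPM in C group. Its log2 fold change was 1.69 ± 0.64 (adjusted P = 0.373), and it did not pass without replicate 1 of O group (0.453), without replicate 4 of C group (1.58) or without replicates 1 and 4 of O group (0.27, adjusted P = 0.63), where no gene of the list rose and 1 fell. The monocyte receptor gene Csf1r was at 545 to 672 CPM in O group and 478 to 623 CPM in C group (adjusted P = 0.572). Of 17 genes tied to suppressive myeloid cells, 5 rose, among them Vegfa, Cebpb, Stat3 and Tgfb1. Without replicate 5 of O group 8 rose, without replicate 1 or 2 of C group or replicate 4 of O group 2 rose, and without replicate 3 of C group 3 rose, as many as without replicates 1 and 4 of O group. Cebpb, a transcription factor of myeloid cells, was at 303, 604, 572, 528 and 357 CPM in O group and at 213, 290, 387, 373 and 277 CPM in C group (log2 fold change 0.62 ± 0.22, adjusted P = 0.355). For this gene replicate 1 was the lowest of O group, and 0.72 was found without replicates 1 and 4 (adjusted P = 0.495). The complement gene C3 rose by 0.40 ± 0.13 and the inflammasome gene Nlrp3 by 1.04 ± 0.34 on the log2 scale, the latter with its highest level in replicate 4 and 0.64 without it.

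The 12 higher genes with the smallest P among those whose groups did not overlap were all outside the erythroid lists. They were chosen for lying higher in every O group library than in any of C group, so that all 5 pools took part follows from the choice. Jund, a subunit of the AP-1 transcription factor (ENSMUSG00000071076, chromosome 8, 70698949 to 70700616), was at 206, 197, 210, 230 and 195 CPM in O group and at 138, 144, 176, 160 and 137 CPM in C group. The lowest O group library exceeded the highest C group library, and the log2 fold change was 0.46 ± 0.09 (adjusted P = 0.337). Cd44, a receptor for hyaluronan that marks activated lymphocytes and myeloid cells (ENSMUSG00000005087, chromosome 2, 102811141 to 102901665), was at 430, 458, 393, 406 and 307 CPM in O group and at 249, 270, 291, 290 and 295 CPM in C group (0.51 ± 0.11, adjusted P = 0.337). Tubb6, a beta tubulin gene, was at 33.9, 40.4, 35.7, 25.9 and 35.2 CPM in O group and 21.7, 25, 23.6, 22.4 and 24.3 CPM in C group (0.55 ± 0.11, adjusted P = 0.337), with 0.66 (adjusted P = 0.174) in the absence of replicates 1 and 4. Havcr2, the gene of the checkpoint receptor TIM-3 and a gene of the T cell activation list that is not one of the 12, was at 21.3 to 23.1 CPM in O group and 16.3 to 19.4 CPM in C group.

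The sphingomyelin synthase gene Sgms2 rose by 1.06 ± 0.21, the transcription factor gene Rfx2 by 1.16 ± 0.24, Plekhg3 by 0.37 ± 0.08, and Zswim4, Fam234a, Mfsd14b and Spef1 by 0.36 to 0.61 on the log2 scale. Vangl1 and Oaz1-ps, which complete the 12 genes, rose by 3.36 ± 0.77 and 2.02 ± 0.48, had the library order of the erythroid genes, and were both highest in replicate 1. The 12 genes passed the test without replicates 1 and 4 of O group as well, Vangl1 at 1.56 and Oaz1-ps at 0.97. By the choice of genes, the remaining O group libraries also lie above every C group library, so this is no separate support. With the log2 hemoglobin share as a covariate Tubb6 (0.56), Fam234a (0.38) and Spef1 (0.66) passed and the other 9 did not. Values were 0.28 for Jund, 0.17 for Cd44, 0.51 for Sgms2, 0.35 for Rfx2 and 0.28 for Vangl1. In that fit only 72 of all 14726 genes tested were higher, so few genes of any kind passed. Oaz1-ps is a pseudogene of Oaz1, and reads could be shared between them.

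**Figure D5:**
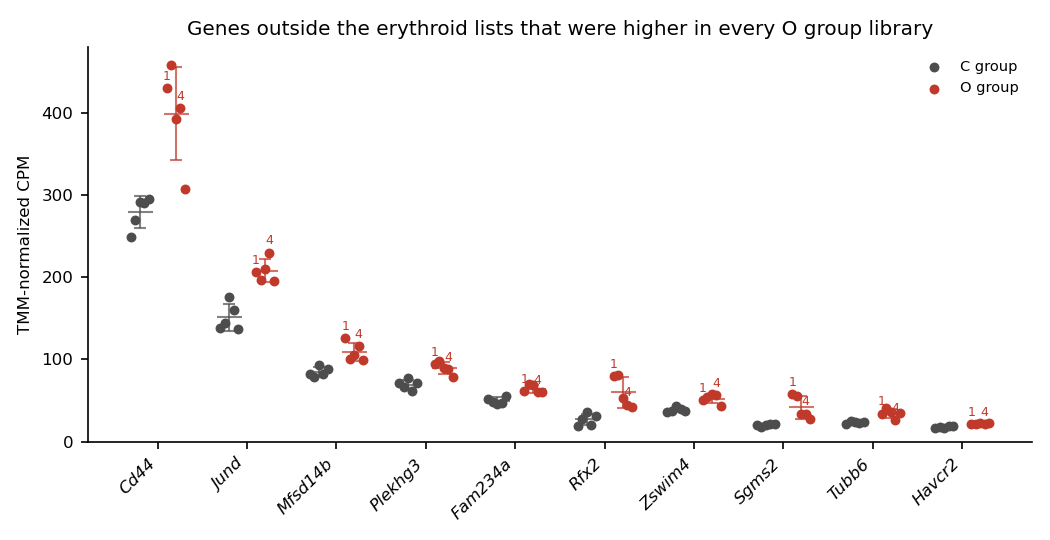
Levels (TMM-normalized CPM) of 10 genes outside the erythroid lists in each PBMC library, with the mean and SD of 5 libraries per group; the numbers 1 and 4 mark these replicates of O group. For each gene the 5 O group libraries lie above the 5 C group libraries, and replicates 1 and 4 are not the highest of O group throughout.

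Of 26 immediate early genes, which code for transcription factors and regulators that are quickly switched on in stimulated cells, 8 rose and none fell (median 0.49), where 7.56% of all genes rose. They were Jund, Ier5, Fos, Klf6, Ier2, Fosl2, Zfp36 and Dusp1. Fos was at 1125, 842, 837, 1302 and 860 CPM in O group and at 627, 486, 575, 894 and 767 CPM in C group (log2 fold change 0.57 ± 0.19, adjusted P = 0.346), with replicate 4 of C group above the lowest O group libraries. Without replicates 1 and 4 of O group 7 genes of the list rose (median 0.395). With the log2 hemoglobin share as a covariate none did (median 0.132), but only 72 of all 14726 genes tested rose there. The count was less steady to single libraries. It was 3 without replicate 3 of O group, 5 without replicate 2 or 4 of O group, 4 without replicate 1, 2 or 5 of C group and 12 without replicate 1 of O group.

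The top 12 genes by P that were lower in every O group library fell by 0.30 to 0.81 on the log2 scale. Besides Klrb1c and Cd3d they were Dhodh, an enzyme of pyrimidine synthesis, Ampd1, an AMP deaminase, Aqp3, a water and glycerol channel, Gne, which starts sialic acid synthesis, Tfap4, a transcription factor, F2rl1, a protease-activated receptor, Rmi2, Spint2, Afp and AW112010. Dhodh was at 11.3, 12.1, 13.3, 12.2 and 14.5 CPM in O group and at 19.7, 16.8, 16.0, 17.2 and 15.9 CPM in C group (log2 fold change -0.43 ± 0.10, adjusted P = 0.337). Ampd1, Aqp3, Rmi2 and Afp lay under 6 CPM in all 10 libraries. Of 83 cytosolic ribosomal protein genes, 7 fell and 2 rose, Rpl41 among them, where 4.39% of all genes fell and 7.56% rose. Without replicate 2 of O group 16 fell, without replicates 1 and 4 of O group 2 fell, and with replicate 2, 3 or 4 of C group or replicate 1, 3 or 4 of O group left out between 1 and 3 fell. The largest fall was in Rps27a, at 184, 300, 195, 194 and 339 CPM in O group and 291, 445, 363, 475 and 439 CPM in C group (-0.73 ± 0.20, adjusted P = 0.337). Rps27a has near-identical pseudogene copies, between which reads can be split.

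The melanocyte genes Tyrp1, Tyr, Dct and Mlana were at or near 0 in both groups at this depth. Tyrp1 had 0 counts in all 10 libraries, Tyr, Dct and Mlana had 0, 0 and 1 counts over the 5 O group libraries and 2, 7 and 0 over the 5 C group libraries, and a count of 0 allows up to 3 counts, 0.369 CPM in the library with the lowest depth after TMM scaling (replicate 1 of O group). Pmel was at 13.5 to 33.2 CPM in O group and 26.3 to 36.7 CPM in C group (adjusted P = 0.597). Slc24a5, a pigment cell ion exchanger gene, was at 16.0, 0.804, 0.984, 5.29 and 2.58 CPM in O group and at 1.23 to 2.94 CPM in C group (log2 fold change 1.29 ± 0.73, adjusted P = 0.496). Replicates 1 and 4 were its highest libraries. Its value was -0.45 without them, and it passed the test without replicate 2 or 3 of O group (1.57 in both cases). Of 5 melanocyte and melanoma genes tested Trpm1 fell. Of the liver, endothelial and keratinocyte lists only 1, 4 and 3 genes could be tested and none passed, while Afp, the alpha-fetoprotein gene named above as lower, is in none of them. Alb and Krt14 had 2 counts or fewer in every library.

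Against S group, the same 5 O group libraries gave a like count, with 1145 genes higher and 651 lower of 14686 tested (12.2% in either direction) and none past the adjusted threshold in edgeR (smallest 0.226; DESeq2 called 216). Since the O group libraries are shared, the comparisons are not independent. T cell genes fell in 23 of 30, NK and cytotoxic genes in 19 of 33 and reticulocyte genes rose in 32 of 33. Among the genes above, Cd44 rose by 0.47 (adjusted P = 0.296) and Klrb1c fell by 0.67 (adjusted P = 0.296) on the log2 scale against S group, while Jund had 0.17 (adjusted P = 0.428) and 1 of 26 immediate early genes rose.

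Whether the effect of a large tumor on RNA levels differed between PBMCs and platelets was tested as an interaction. Both tissues were taken from the same blood, and same-numbered O group pools of both tissues have the same number of mice, so they may share mice. Their deviations from the group mean correlated between 0.07887 and 0.4712, whereas the fit treats the libraries as independent. With the replicate block, which pairs them, no gene passed the adjusted threshold either. At the unadjusted threshold 847 of 15836 genes (5.35%) passed, and at the adjusted one none did in edgeR (smallest 0.0986), with 1 gene in DESeq2. Hba-a1 had a log2 fold change of -0.04 in platelets (adjusted P = 0.996), and the interaction had adjusted P = 0.895. Cd3e was lower in platelets as well, by 0.84 on the log2 scale (adjusted P = 0.315), and the interaction had adjusted P = 0.97. Cd44 had -0.48 in platelets (adjusted P = 0.44), and the interaction had adjusted P = 0.895. The gene with the smallest interaction P, Xkr5, was at 0 CPM in all 5 platelet libraries of O group and at 0.387 CPM or less in C group.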

How the data were processed

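PBMC RNA of 5 O group and 5 C group pools was sequenced from poly(A)-selected libraries. The deposited values were whole-number read counts per gene, which the authors made with HISAT2 2.0.5 and featureCounts 1.5.0-p3 per the labels; strand setting was not given in the sources used here. The labels name the build mm9, while 54495 of 54532 gene IDs matched GENCODE M21 (GRCm38), whose gene positions are given. Genes passing filterByExpr were tested in edgeR 4.0.16 (TMM, quasi-likelihood) in R 4.3.3 on the 10 libraries, with the unadjusted threshold of the study (0.05) and Benjamini-Hochberg adjusted values; the script was tested on simulated data. The study used DESeq2 1.16.1; DESeq2 1.42.0 and limma 3.58.1 served as alternatives. Every P beside a fold change is from edgeR. Errors of log2 fold changes are standard errors. Members and 37 gene lists were chosen with earlier results of these data known. Genes named were the 12 with the smallest P in each direction without overlap between groups and a mean of at least 2 CPM, the same rule for higher genes outside the erythroid lists (which gave the same 12 higher genes), up to 4 per list, near-identical copies, cell type markers and the top of the interaction. Some genes that this rule takes in are not reported here. Other genes named were chosen after their values were seen. No columns of the authors' comparisons were used. Total counts per library limit precision, and floors cover counting error only.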

Additional observations from a re-analysis of the deposited data

Results flagged for a closer look

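A library was noted where its distance to the nearest other of its 5 replicates exceeded 0.71 of the range of the group. This held in 34 of 270 sets of 5 values. The limit marks about 1 in 20 sets of independent, normally distributed values, a rate that cannot be carried over here, since many of the genes move together and the sets of Dct and Mlana hold 4 zeros. In C group, replicate 3 stood above its group for Hbb-bt (9244 CPM), Alas2 (3223), Fech (359), Urod (42.6), Epb41 (1166), Bpgm (1646), Ube2l6 (866), Nusap1 (10.5), Psme3 (185), Psmf1 (42.1), Foxo3 (128), Ier5 (306) and Tox (8.59). In O group, replicate 1 stood above its group for Hbq1b (275 CPM), Urod (1520), Epb41 (23697), Add2 (329), Sox6 (138), E2f2 (1988), Rsad2 (5788), Psme3 (2194), Psmf1 (191), Hemgn (80.8), Tfrc (1327), Cd36 (403) and Asns (51.3). Replicate 4 of O group did for Cxcl2 (505 CPM) and Osm (269). Replicate 4 of C group stood above its group for the neutrophil genes S100a8 (577 CPM) and Ly6g (8.75) and for Anxa1 (160). Replicate 5 of O group stood above its group for the B cell gene Ms4a1 (286 CPM). Replicate 5 of C group, at 0.396 CPM, was the only C group library with counts on Dct, and replicate 3 of O group, at 0.0757 CPM, the only O group library with a count on Mlana.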

How the results depend on the processing

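The count of genes at the unadjusted threshold (1759) was between 1191 and 2634 when 1 library was left out, highest without replicate 5 of O group. When 1 library was left out, the count against S group was between 1343 and 2677, and the difference in hemoglobin share between 9.54 and 14.0 percentage points. With the hemoglobin share as a covariate 149 genes passed. That share is made from hemoglobin genes and differed between the groups. A lost call or changed sign in that fit does not show what a gene depends on. At the adjusted threshold DESeq2 called 248 genes (all genes) or 239 (filtered), where edgeR called 0, and for the interaction 1, where edgeR called 0 and between 0 and 1 when 1 library was left out. The cause was not tested. Same-numbered O and C libraries correlated between 0.04413 and 0.3851 in their deviations, over 0.1 in 4 of 5 pairs, and 3 of 5 O group libraries correlated best with their own number. This leans towards pairing, but the labels do not say that a number marks a shared experiment and the fifth pair lay under 0.1, so the fit with the replicate block is an alternative. With the block 1801 genes passed, 20 of 129 named genes no longer passed (Urod, Sox6, Hemgn, Foxo3, E2f2, Tfrc, Cox6a1, Thbs1, Ccl9, Lgals3, Cd36, Cd59a, Tgfb1, Psmf1, Psmd4, Psmd8, Rpl41, Kcnn4, Mcm3 and Tox), S100a8, Gzma and Jchain did, and the median of the red cell membrane list was 2.56 in place of 3.91. Against S group 2023 passed with the block. Under RLE factors or with the erythroid lists left out of the scaling, the 129 named genes tested kept direction and side of the threshold, except that Kcnn4 did not pass under RLE factors.

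Log2 fold changes changed sign with the hemoglobin share as a covariate for Hba-a1 (-0.336), Hbq1b (-0.631), Hbq1a (-0.473), Alas2 (-0.213), Fech (-0.201), Urod (-0.51), Epb41 (-0.373), Add2 (-0.459), Sox6 (-1.58), E2f2 (-0.481), Bpgm (-0.201), Ube2l6 (-0.134), Isg15 (-0.173), Rsad2 (-0.344), Ube2c (-0.429), Nusap1 (-0.275), Psme3 (-0.37), Cox6a1 (-0.356), Asns (-0.409), S100a8 (-0.555), Ly6g (-0.919), Pf4 (-1.3), Itga2b (-0.777), Csf1r (-0.00273), Cx3cr1 (0.0347), Cd79a (0.137), Ms4a1 (0.0358), Ccnf (0.316), Cd36 (-0.371), Cd59a (-1.75), Fosl2 (-0.0611), Foxo3 (-0.244), Hemgn (-1.2), Lmo2 (-0.116), Psmd4 (-0.271), Psmd8 (-0.112), Psmf1 (-0.451), Rpl41 (-0.425), Slc24a5 (-0.131), Tfrc (-0.826), Tox (0.0964) and Vegfa (-0.182). Without replicates 1 and 4 of O group, chosen after seeing the data, they did for S100a8 (-0.907), Ly6g (-0.926), Cxcr2 (-1.14), Csf3r (-0.167), Pf4 (-0.719), Itga2b (-0.506), Cd79a (0.069), Cd59a (-0.0655) and Slc24a5 (-0.452), and with replicate 4 of C group also left out for Cxcr2 (-0.845), Csf3r (-0.111), Pf4 (-0.472), Itga2b (-0.227), Cd79a (0.021) and Slc24a5 (-0.277). With voom Pf4 (-0.178), Itga2b (-0.0609) and Slc24a5 (-0.383) changed sign. With 1 library left out at a time, values of both signs were found for Itga2b (-0.00364 to 0.926), Cx3cr1 (-0.0939 to 0.0828) and Cd79a (-0.187 to 0.0142).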

Other observations

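Of all genes tested 7.56% rose and 4.39% fell. Of 39 genes of inflammatory cytokines, chemokines and their receptors, Nlrp3, Tnfrsf1a, Osm, Tgfb1 and Cxcl2 rose and Il18r1 fell (median log2 fold change 0.27). Osm did not pass without replicate 1, 2 or 5 of C group or replicate 4 of O group (0.381 in place of 0.857), nor did Cxcl2 without these or replicate 2 of O group (0.838 in place of 1.66 without replicate 4). Tnfrsf1a did not pass without replicate 4 of O group (0.286), and Tgfb1 without replicate 1, 2, 3 or 4 of C group or replicate 1 or 4 of O group. Of 30 genes of glycolysis and the hypoxia response 3 rose (median 0.19), a share near that of all genes. Of 19 complement and Fc gamma receptor genes C3, Cfp and Cd59a rose (median 0.26). Cd59a, at a log2 fold change of 2.88, did not pass without replicate 1 of O group (1.64). Of 11 stem and progenitor cell genes, Spi1 rose and Myb fell (median 0.09). Spi1 did not pass without replicate 2 of C group or replicate 1 or 4 of O group, nor Myb without replicate 2, 3 or 5 of C group or replicate 1, 2 or 3 of O group. Of 24 histone genes tested 2 rose (median -0.23), a share near the 7.56% of all genes, with 1 to 4 when single libraries were left out and 0 without replicates 1 and 4 of O group, where 3 fell. Without replicates 1 and 4 of O group the medians of these 5 lists were 0.04, -0.02, -0.01, -0.24 and -0.67, in the same order. With single libraries left out the counts moved by more than 1.5 times: between 1 (without replicate 4 of O group) and 10 (without replicate 4 of C group) cytokine, chemokine and receptor genes rose, up to 7 genes of glycolysis and the hypoxia response (without replicate 2, 3 or 5 of O group) and up to 8 complement and Fc gamma receptor genes (without replicate 4 of C group or replicate 5 of O group).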
